A study of Mus musculus with 10 samples.

Results

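The genes described are 10 of the insulin-like growth factor (IGF) and insulin pathway, chosen by symbol with earlier results of these data known. The set holds the ligands Igf1 and Igf2, the receptors Igf1r and Insr, and the receptor substrates Irs1 and Irs2. It also holds the binding proteins Igfbp2, Igfbp3, Igfbp4 and Igfbp5. The 10 genes are among the 55487 genes in the count table, and all 10 were among the 18956 genes that passed the filter on low counts. RNA-seq was made from 10 ovaries of C57BL/6J mice in 3 groups. The Control group held 4 ovaries from mice 8 weeks old, the Aged group held 3 ovaries from mice 11 months old by the labels, and the Aged+CF group held 3 ovaries from mice of 11 months given 200 μL of CEFFE at 3 μg/μL. CEFFE is cell-free fat extract, the protein-rich liquid left after fat tissue is emulsified and centrifuged. By the study's methods it was injected into the tail vein over 2 weeks, Control and Aged mice received the same volume of saline, and the age of the aged mice was stated as slightly lower than in the labels. All mice in the 3 groups had received 10 IU of pregnant mare serum gonadotropin, which drives follicle growth, 48 h before the ovaries were taken.

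IGF1 and IGF2 are secreted growth factors that act mainly through the IGF1 receptor, a tyrosine kinase closely related to the insulin receptor. Both receptors phosphorylate the substrate proteins IRS1 and IRS2, which recruit PI3-kinase and so activate AKT, which in turn inhibits GSK3 and keeps FOXO factors out of the nucleus. IGF-binding proteins hold most secreted IGF and set how much is free to reach the receptor, and proteases such as PAPP-A release it. In the ovary the pathway is known for amplifying the response of granulosa cells, the somatic cells around the oocyte, to follicle-stimulating hormone.

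The libraries held 15761789 to 21318254 counted reads. Levels are given as CPM, read counts scaled to a common library size, after TMM scaling, a correction for differences in library composition. The 3 Aged ovaries resembled each other less than the ovaries of the other groups did: the mean Pearson r of an Aged ovary with its own group, across genes, was 0.933 to 0.956, against 0.974 to 0.980 in Control and Aged+CF, with Aged 34 the lowest. Summed markers of the oviduct stood at 393 CPM in Control 33 and 304 CPM in Aged 34, against 1.69 to 32.5 CPM in the other 8 ovaries. Markers of the oocyte and of granulosa cells were detected in every group. The summed oocyte markers were 298 to 406 CPM in Control, 11.5 to 83.9 CPM in Aged and 112 to 176 CPM in Aged+CF, and 9 of 10 of them fell in Aged vs Control. The summed granulosa markers were 5150 to 8142 CPM in Control, 3376 to 4572 CPM in Aged and 2971 to 5116 CPM in Aged+CF, with none of 10 called in Aged vs Control (median log2 fold change -0.83). All 7 corpus luteum markers rose in Aged vs Control, where their sum was 7223 to 18790 CPM in Aged against 1619 to 4813 CPM in Control. In whole ovaries, fewer cells of a type and less RNA per cell cannot be told apart, and the part of these cell types in the results below was not tested.

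The first comparison, Aged vs Control, asked how the pathway differed with age. Igf1 and Irs2 fell and Igfbp3 rose in the Aged ovaries, by 1.70-fold, 1.85-fold and 1.89-fold, while the other binding proteins, Igf2 and Insr did not pass the test. Calls rest on edgeR's quasi-likelihood test over all genes tested and needed both a 1.5-fold difference and a Benjamini-Hochberg adjusted p under 0.05. By that rule 3 of the 10 genes were called, beside 11.1% of all genes tested. In direction, 1 gene was higher, beside 5% of all genes, and 2 were lower, beside 6.06% of all genes. With the adjusted p alone, 4 of 10 passed, Igf1r being added, beside 15.4% of all genes. With the fold change and an unadjusted p, 4 of 10 passed, Irs1 being added, beside 18.2%. The CPM values of Aged and Control did not overlap for 5 of 10 genes (Igfbp3 higher, and Igf1, Igf1r, Irs1 and Irs2 lower), beside 27.5% of all genes. The median log2 fold change was -0.24 over the 10 genes and -0.00 over all genes tested. The p-values measure the spread between these ovaries, since the labels do not say how the ovaries relate to animals beyond their numbers.

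**Figure D1:**
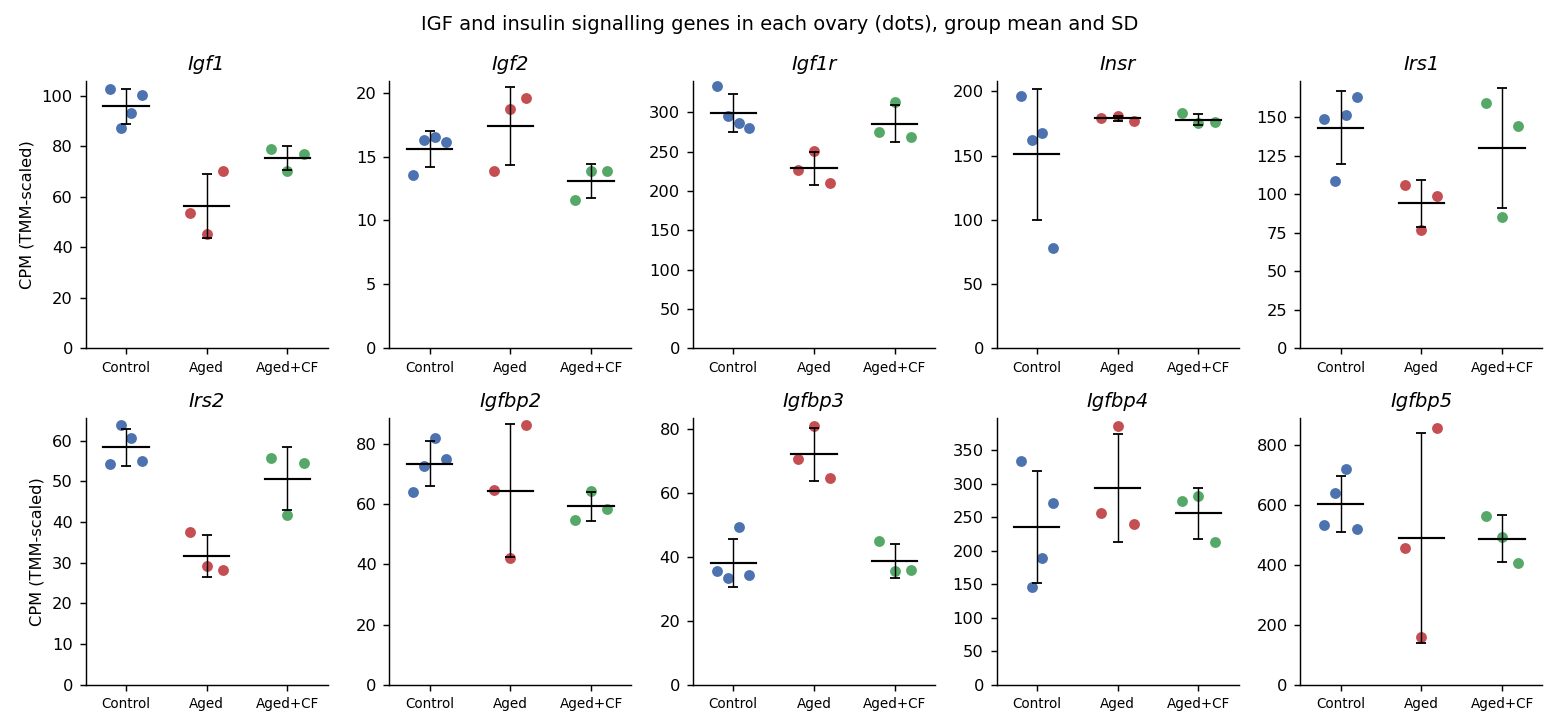
Level of each of the 10 genes in each ovary, in CPM after TMM scaling on axes that start at 0; dots are ovaries, horizontal lines are group means and error bars are SD (n = 4, 3 and 3). The 3 Aged ovaries lie at 45.2 to 70.0 CPM for Igf1, 28.2 to 37.5 CPM for Irs2 and 64.5 to 80.9 CPM for Igfbp3, apart from the Control ovaries in each case.

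The second comparison, Aged+CF vs Aged, asked whether the extract moved the aged pattern. None of the 10 genes was called at adjusted p by edgeR, beside 0.00528% of all genes tested, which is 1 gene. With an unadjusted p, 2 of 10 passed, Irs2 higher and Igfbp3 lower, beside 7.96% of all genes, and 5 of 10 passed when the fold change was left out as well, beside 16.3%. DESeq2's Wald test called the same 2 genes at adjusted p, beside 2.33% of all genes. Without Aged 34, edgeR called 2 of 10 genes, beside 2.87% of all genes. They were Igf1, higher (log2 fold change 0.59, adjusted p = 0.0367), and Igfbp3, lower (log2 fold change -0.98, adjusted p = 0.0326). The CPM values of Aged+CF and Aged did not overlap for 5 of 10 genes (Igf1, Igf1r and Irs2 higher, Igf2 and Igfbp3 lower), beside 18.6% of all genes. Without TMM scaling, the values of Igf1 and of Igf2 in these groups overlapped. The median log2 fold change was -0.01 over the 10 genes and -0.02 over all genes.

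In Aged+CF vs Control, none of the 10 genes was called by edgeR at adjusted p, beside 0.179% of all genes, or at unadjusted p with the fold change, beside 7.69%. Igf1 was the 1 gene of 10 whose values did not overlap, lower in Aged+CF, beside 21.9% of all genes, and the 1 gene with an unadjusted p under 0.05, beside 14.3%. Its log2 fold change was -0.35 (SE 0.14, adjusted p = 0.304, edgeR). DESeq2's Wald test and limma likewise called none of the 10. The 3 comparisons share their ovaries pairwise, so a value of the Aged group enters both of the first comparisons, and their fold changes are given side by side with no measure of likeness.

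**Figure D2:**
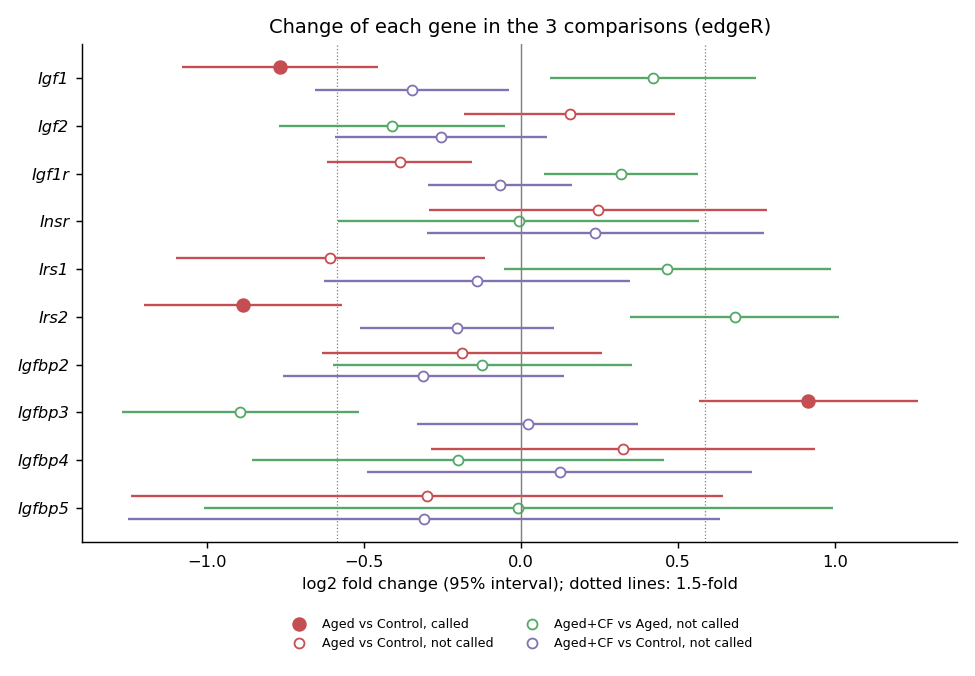
Log2 fold change of each gene with its 95% interval from edgeR, in the 3 comparisons (colours); filled points were called at adjusted p, open points were not, and dotted lines mark a 1.5-fold change. Filled points stand at Igf1, Irs2 and Igfbp3 in Aged vs Control, at log2 fold changes of -0.77, -0.88 and 0.92, and at no gene in the other comparisons.

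Among the ligands, Igf1, which granulosa cells of growing follicles make in the mouse, is annotated at chr10:87858265-87937042 on the plus strand of GRCm38. Its level was 103, 87.4, 93.1 and 100.2 CPM in Control 31, 32, 33 and 34. It was 53.7, 45.2 and 70.0 CPM in Aged 31, 33 and 34, and 79.0, 70.1 and 77.1 CPM in Aged+CF 30, 32 and 34. In CPM, every Control ovary was above every Aged+CF ovary, and every Aged+CF ovary was above every Aged ovary. The narrowest gap was between Aged+CF 32 and Aged 34, and without TMM scaling Aged 34 was just above Aged+CF 32. The group means were 95.9 ± 7.0 CPM (SD, n = 4) in Control, 56.3 ± 12.6 CPM (SD, n = 3) in Aged and 75.4 ± 4.67 CPM (SD, n = 3) in Aged+CF. In Aged vs Control, Igf1 fell by 0.77 on the log2 scale (SE 0.14, adjusted p = 0.00993, edgeR). Igf1 in Aged+CF vs Aged had a log2 fold change of 0.42 (SE 0.15, unadjusted p = 0.0173, adjusted p = 0.222, edgeR), with a 95% interval of 0.09 to 0.75. Over 18 alternatives of edgeR, DESeq2 and limma, that adjusted p ran from 0.0367 to 0.739.

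Igf2, the fetal growth factor, is encoded at chr7:142650766-142666816 on the minus strand. Its level was 13.5 to 16.5 CPM in Control, 13.9 to 19.6 CPM in Aged and 11.6 to 13.9 CPM in Aged+CF. Its Aged and Control values overlapped. Its 3 Aged+CF values lay below the 3 Aged values in CPM, though the closest pair, Aged+CF 34 and Aged 31, were nearly equal (13.88 and 13.90 CPM). Without TMM scaling, Aged+CF 32 and Aged+CF 34 lay above Aged 31. Aged vs Control gave a log2 fold change of 0.16 (adjusted p = 0.524), and Aged+CF vs Aged gave -0.41 (95% interval -0.77 to -0.05, adjusted p = 0.262, edgeR). Igf2 shares bases with Gm49394 and Mir483 on its own strand and with Igf2os on the other, and Igf1 overlaps Igf1os on the other strand. Whether counting used strand is not stated, so reads of such partners cannot be told apart.

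Per length, Igf1 RNA stood above Igf2 RNA in every ovary, as counted. How reads shared by Igf2 and Gm49394 were counted is not stated, so the Igf2 level is uncertain. The ratio of Igf1 to Igf2 in FPKM (fragments scaled by gene length and library size, which allows genes to be compared) was 5.36 to 7.60 in Control, 2.41 to 3.87 in Aged and 5.07 to 6.83 in Aged+CF. The Aged ratios lay below all others, while those of Control and Aged+CF overlapped. The insulin genes themselves were close to silent: Ins1 had no count in any ovary, which allows up to 3 counts, and Ins2 had 0 to 3 counts per ovary.

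The receptor Igf1r, at chr7:67952827-68233668 on the plus strand, was at 334, 295, 287 and 281 CPM in Control 31, 32, 33 and 34. It was at 226, 251 and 209 CPM in Aged 31, 33 and 34, and at 275, 313 and 268 CPM in Aged+CF 30, 32 and 34. All 3 Aged ovaries were below all 7 others, and Control and Aged+CF overlapped. In Aged vs Control the log2 fold change was -0.39 (SE 0.10, adjusted p = 0.0340, edgeR), a 1.31-fold difference that passed the p but not the fold threshold. The value for Aged+CF vs Aged was 0.32 (SE 0.11, adjusted p = 0.219, edgeR).

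Insr, the insulin receptor, at chr8:3122061-3279617 on the minus strand, did not follow Igf1r. It was at 177 to 181 CPM in the 3 Aged ovaries and 175 to 183 CPM in the 3 Aged+CF ovaries. The Control ovaries held 197, 162, 167 and 78.1 CPM, Control 34 being by far the lowest of the 10. The log2 fold change in Aged vs Control was 0.25 (95% interval -0.29 to 0.78) and in Aged+CF vs Aged -0.01 (95% interval -0.58 to 0.57), the first of which reaches past a 1.5-fold change. In FPKM, the ratio of Igf1r to Insr was 1.36 to 2.89 in Control, 0.951 to 1.11 in Aged and 1.21 to 1.43 in Aged+CF, with the Aged ovaries below all others.

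The adaptors come next. IRS1 and IRS2 are the main substrates of both receptors, and IRS2 mediates much of the response to insulin in metabolic tissues. Irs2 lies at chr8:10984681-11008458 and Irs1 at chr1:82233101-82291416, both on the minus strand of GRCm38. Their promoters, from 250 bases before to 50 after the RefSeq start on GRCm38.p6, are shown. Irs2 was a called gene, and the Irs1 promoter was added after the sequences had been seen. Both genes were lower in every Aged ovary than in any Control ovary, as were Igf1 and Igf1r, whose promoters are not shown. Capitals mark CACGTG, the E-box core, and GGGCGG, the core of sites of the SP1 family, on the strand of the gene. The Irs2 promoter is chr8:11008880-11009179 and the Irs1 promoter is chr1:82291390-82291689, each on the minus strand. The Irs2 promoter lies wholly upstream of the gene span given above, so the RefSeq start differs from the start of that span.
Irs2: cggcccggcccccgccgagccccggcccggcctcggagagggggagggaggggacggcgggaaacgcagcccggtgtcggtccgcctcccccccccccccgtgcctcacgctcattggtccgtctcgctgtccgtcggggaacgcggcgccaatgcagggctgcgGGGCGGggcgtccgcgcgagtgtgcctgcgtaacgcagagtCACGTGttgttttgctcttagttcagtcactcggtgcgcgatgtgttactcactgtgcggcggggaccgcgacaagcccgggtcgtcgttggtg
Irs1: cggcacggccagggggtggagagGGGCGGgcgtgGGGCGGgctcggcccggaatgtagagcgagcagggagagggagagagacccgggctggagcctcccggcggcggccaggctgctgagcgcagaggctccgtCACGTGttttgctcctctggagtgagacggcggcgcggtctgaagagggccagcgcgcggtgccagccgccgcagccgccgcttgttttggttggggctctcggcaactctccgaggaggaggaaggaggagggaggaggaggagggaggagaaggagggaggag

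Both promoters were rich in G and C, at 72% in Irs2 and 71.3% in Irs1, against a median of 52.7% over the 32851 promoters of the table. Each holds 1 CACGTG, a motif that was searched for after these sequences had been read and that occurs in 7.15% of all promoters. It lies 44 to 39 bases before the RefSeq start in Irs2 and 115 to 110 bases before the RefSeq start in Irs1. The surroundings share the 10 letters GTCACGTGTT, picked as the longest string common to both promoters and held by 25 of the 32851 promoters. How long a string such promoters share by chance was not tested.
Irs1 E-box: gctccgtCACGTGttttgctcctct
Irs2 E-box: gcagagtCACGTGttgttttgctct

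Irs2 was at 54.3, 63.8, 60.6 and 54.9 CPM in Control 31, 32, 33 and 34. It was at 37.5, 29.2 and 28.2 CPM in Aged 31, 33 and 34, and at 55.8, 41.7 and 54.6 CPM in Aged+CF 30, 32 and 34. Aged was below both other groups without overlap, and 2 of the 3 Aged+CF ovaries were within the Control range while Aged+CF 32 was below it. Irs2 fell in Aged vs Control by 0.88 on the log2 scale (SE 0.14, adjusted p = 0.00666, edgeR). Its log2 fold change in Aged+CF vs Aged was 0.68 (SE 0.15, unadjusted p = 0.00103, adjusted p = 0.159, edgeR), and with DESeq2's Wald test 0.67 (adjusted p = 0.00444). Its adjusted p in Aged+CF vs Aged ran from 0.00444 to 0.728 over the 18 alternatives of edgeR, DESeq2 and limma.

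Irs1 was at 149, 109, 151 and 163 CPM in Control 31, 32, 33 and 34. It was at 106, 76.8 and 99.0 CPM in Aged 31, 33 and 34, and at 159, 85.4 and 145 CPM in Aged+CF 30, 32 and 34. Aged lay below Control, though Control 32 and Aged 31 were close, and Aged+CF overlapped both. The log2 fold change in Aged vs Control was -0.61 (SE 0.22, unadjusted p = 0.0208, adjusted p = 0.0909, edgeR), which did not pass, and leaving out Aged+CF 32 from the fit brought it past the threshold (adjusted p = 0.0412). Over 18 alternatives of edgeR, DESeq2 and limma, the adjusted p of Irs1 in Aged vs Control ran from 0.0412 to 0.263. The corresponding value for Aged+CF vs Aged was 0.47 (95% interval -0.06 to 0.99, adjusted p = 0.352, edgeR). Aged+CF 32, the lowest of its group for both adaptors, also had the lowest summed granulosa markers of the 10 ovaries, 2971 CPM against 5116 and 4962 CPM in Aged+CF 30 and 34, and what that contributes was not tested. Irs1 overlaps Gm9747 and Irs2 overlaps 9530052E02Rik, both on the opposite strand.

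Of the 4 binding proteins, Igfbp3 alone was called. In blood its product carries most circulating IGF. It lies at chr11:7206086-7213923 on the minus strand and overlaps no other annotated gene. Its promoter is shown because it was the gene of the 10 that rose, and holds none of the motifs searched, so that no letters are capitalised. It is chr11:7213874-7214173 of GRCm38.p6 on the minus strand, from RefSeq, with a GC content of 71.7%.
Igfbp3: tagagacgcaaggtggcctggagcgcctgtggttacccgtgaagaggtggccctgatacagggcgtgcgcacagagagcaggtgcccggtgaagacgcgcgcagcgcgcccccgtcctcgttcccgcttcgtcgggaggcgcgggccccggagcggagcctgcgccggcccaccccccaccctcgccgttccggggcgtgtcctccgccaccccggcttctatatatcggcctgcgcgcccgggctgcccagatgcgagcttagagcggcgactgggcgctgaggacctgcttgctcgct

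Igfbp3 was at 35.6, 33.4, 49.2 and 34.4 CPM in Control 31, 32, 33 and 34. It was at 70.4, 80.9 and 64.5 CPM in Aged 31, 33 and 34, and at 44.8, 35.4 and 35.9 CPM in Aged+CF 30, 32 and 34. The 3 Aged ovaries were above all others, and the Control and Aged+CF values overlapped. The means were 38.1 ± 7.43 CPM (SD, n = 4) in Control, 71.96 ± 8.31 CPM (SD, n = 3) in Aged and 38.7 ± 5.31 CPM (SD, n = 3) in Aged+CF. Igfbp3 rose in Aged vs Control by 0.92 on the log2 scale (SE 0.16, adjusted p = 0.00805, edgeR). Aged+CF vs Aged gave a log2 fold change of -0.89 (SE 0.17, unadjusted p = 0.000361, adjusted p = 0.150, edgeR), and Aged+CF vs Control gave 0.02 (95% interval -0.33 to 0.37). DESeq2's Wald test gave -0.90 for Aged+CF vs Aged (adjusted p = 0.000824), and edgeR without Control 33 and Aged 34, the ovaries with oviduct markers, gave -0.98 (adjusted p = 0.0189). Over the same 18 alternatives of edgeR, DESeq2 and limma, the adjusted p in Aged+CF vs Aged ran from 0.000824 to 0.728.

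Several sums of markers of other cell types were, like Igfbp3, higher in Aged than in Control. In Aged+CF, Igfbp3 and the endothelial and blood sums overlapped Control, while the theca, corpus luteum and macrophage sums lay above every Control ovary. The 6 endothelial markers summed to 377 to 451 CPM in Control, 512 to 680 CPM in Aged and 449 to 506 CPM in Aged+CF, and 4 of 6 rose in Aged vs Control. The 7 theca markers summed to 8586 to 12450 CPM in Control, 19210 to 33650 CPM in Aged and 14700 to 19030 CPM in Aged+CF, with 4 of 7 rising in Aged vs Control. Those 4 were Cyp11a1, Star, Hsd3b1 and Lhcgr, of which Lhcgr was also counted among the corpus luteum markers. In Aged 33, Cyp11a1, Hsd3b1 and Star stood at 13665, 8985 and 6510 CPM within the theca sum of 33650 CPM. Which cells these genes stand for was not tested. The theca marker Insl3 went the other way, at 6.24 to 14.4 CPM in Control and 3.28 to 4.16 CPM in Aged, and Cyp17a1 was at 53.0 to 297 CPM in Control and 16.9, 146 and 504 CPM in Aged 31, 33 and 34. The 3 blood markers, which include globin genes, all rose in Aged vs Control and summed to 46.5 to 75.0 CPM in Control, 177 to 414 CPM in Aged and 72.8 to 167 CPM in Aged+CF. The 7 macrophage markers summed to 214 to 238 CPM in Control, 279 to 492 CPM in Aged and 282 to 353 CPM in Aged+CF, and 3 of 7 rose in Aged vs Control. Within the Aged group, Igfbp3 and the endothelial, corpus luteum, theca and blood sums were each highest in Aged 33 and lowest in Aged 34, whereas the macrophage sum was highest in Aged 34. None of these markers was at 0 in any group, none was called in Aged+CF vs Aged by edgeR, and their part in the Igfbp3 result was not tested.

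**Figure D3:**
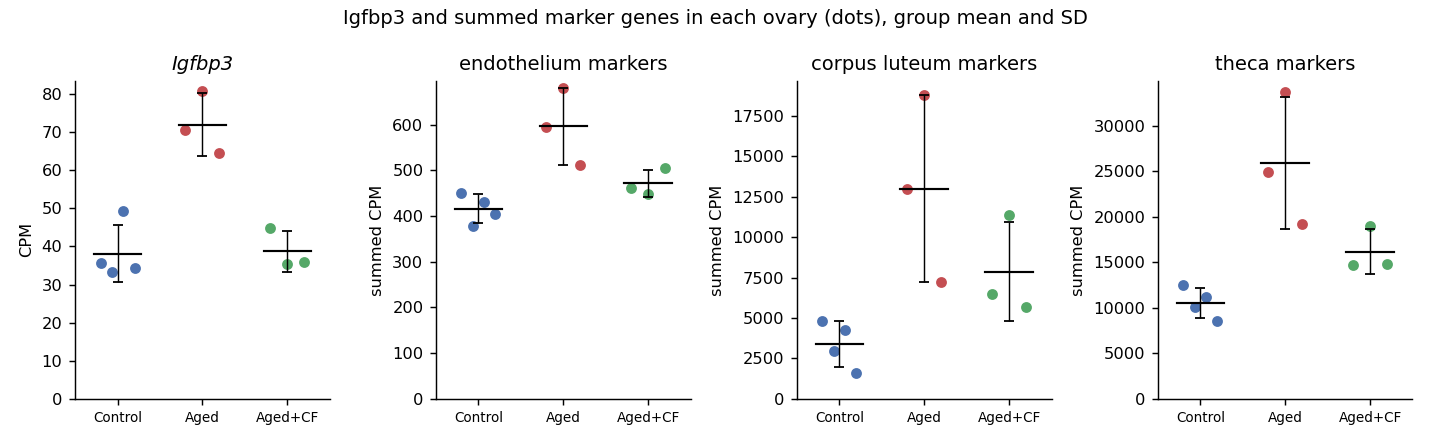
Igfbp3 in CPM (left) and the summed CPM of endothelial, corpus luteum and theca markers in each ovary (dots), with group means and SD (n = 4, 3 and 3), on axes that start at 0. Aged is the highest group in each panel; the Aged+CF ovaries overlap Control for Igfbp3 (35.4 to 44.8 CPM) and lie above Control for the corpus luteum sum (5685 to 11360 CPM).

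The other binding proteins did not pass the test in any comparison, and the Aged ovaries differed widely among themselves. Igfbp5, encoded at chr1:72857932-72874884 on the minus strand, was at 522 to 720 CPM in Control and 407 to 564 CPM in Aged+CF. It was at 456, 160 and 856 CPM in Aged 31, 33 and 34, which spans a wider range than all other ovaries together. Its log2 fold change in Aged vs Control was -0.30 (SE 0.42, adjusted p = 0.677, edgeR). Igfbp2, its neighbour at chr1:72824503-72852474 on the plus strand, was likewise lowest in Aged 33 (42.3 CPM) and highest in Aged 34 (86.3 CPM), against 64.1 to 82.1 CPM in Control and 54.7 to 64.4 CPM in Aged+CF. Igfbp4, at chr11:99041244-99054392 on the plus strand, stood the other way within the group, at 387 CPM in Aged 33 and 240 CPM in Aged 34. Igfbp4 ranged from 146 to 334 CPM in Control, the widest Control spread of the binding proteins in relative terms, and from 213 to 281 CPM in Aged+CF. The summed stroma markers also ordered the Aged ovaries, at 970 CPM in Aged 33, 1575 CPM in Aged 31 and 3264 CPM in Aged 34, and their part in these values was not tested. Neither Igfbp2 (log2 fold change -0.19, 95% interval -0.63 to 0.26) nor Igfbp4 (0.32, 95% interval -0.29 to 0.94) passed in Aged vs Control.

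Per length, Igfbp5, Igfbp4 and Igfbp2 had the highest mean FPKM of the 10 genes in every group, and the ligands the lowest. In Control, mean FPKM ran from Igfbp5 (62.9), Igfbp4 (39.8) and Igfbp2 (28.2), whose ranges overlapped from each to the next, down to Igf1r (16.3), Irs1 (16.2), Igfbp3 (10.4), Insr (10.3), Irs2 (9.55), Igf1 (7.54) and Igf2 (1.23). Ranges of neighbours did not overlap between Igfbp2 and Igf1r, between Irs2 and Igf1 and between Igf1 and Igf2. In Aged, Igfbp3 (17.9 FPKM) stood in the fourth place, above Igf1r (11.4 FPKM) without overlap. In Aged+CF it was in the seventh place, at 10.3 FPKM, overlapping Insr (11.8 FPKM).

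As a share of the summed FPKM of the 4 binding proteins, Igfbp3 made up 6.64% to 8.84% in Control, 9.77% to 18.4% in Aged and 7.27% to 8.86% in Aged+CF. The Igfbp5 share ran from 13.8% in Aged 33 to 49.4% in Aged 34, and from 38.0% to 52.0% in Control. Set against the same sum, Igf1 amounted to 5.52%, 5.36%, 4.82% and 5.70% in Control 31, 32, 33 and 34. It was 3.13%, 2.95% and 3.05% in Aged 31, 33 and 34, and 4.49%, 4.14% and 5.48% in Aged+CF 30, 32 and 34. The Aged ovaries were below all others and close to each other, although their summed binding proteins ranged from 101 to 175 FPKM. These shares leave out Igfbp6 and Igfbp7, which are not among the 10 genes. Igfbp7 had a mean of 355 FPKM in Control, 453 FPKM in Aged and 354 FPKM in Aged+CF, and Igfbp6 had 114, 107 and 106 FPKM. Over the 6 binding-protein genes that passed the filter, Igfbp3 made up 1.51% to 2.17% in Control, 2.095% to 2.92% in Aged and 1.58% to 2.12% in Aged+CF, so that the groups overlapped. Igf1 then amounted to 1.14% to 1.33% of the sum in Control, 0.469% to 0.655% in Aged and 0.901% to 1.08% in Aged+CF, with no overlap between groups. Igfbp7 alone made up from 56.6% of this sum in Control 33 to 74.3% in Aged 33, so the ratio is mostly that of Igf1 to Igfbp7. No test was made of these ratios, and the sum over 6 genes was added after the data were seen.

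**Figure D4:**
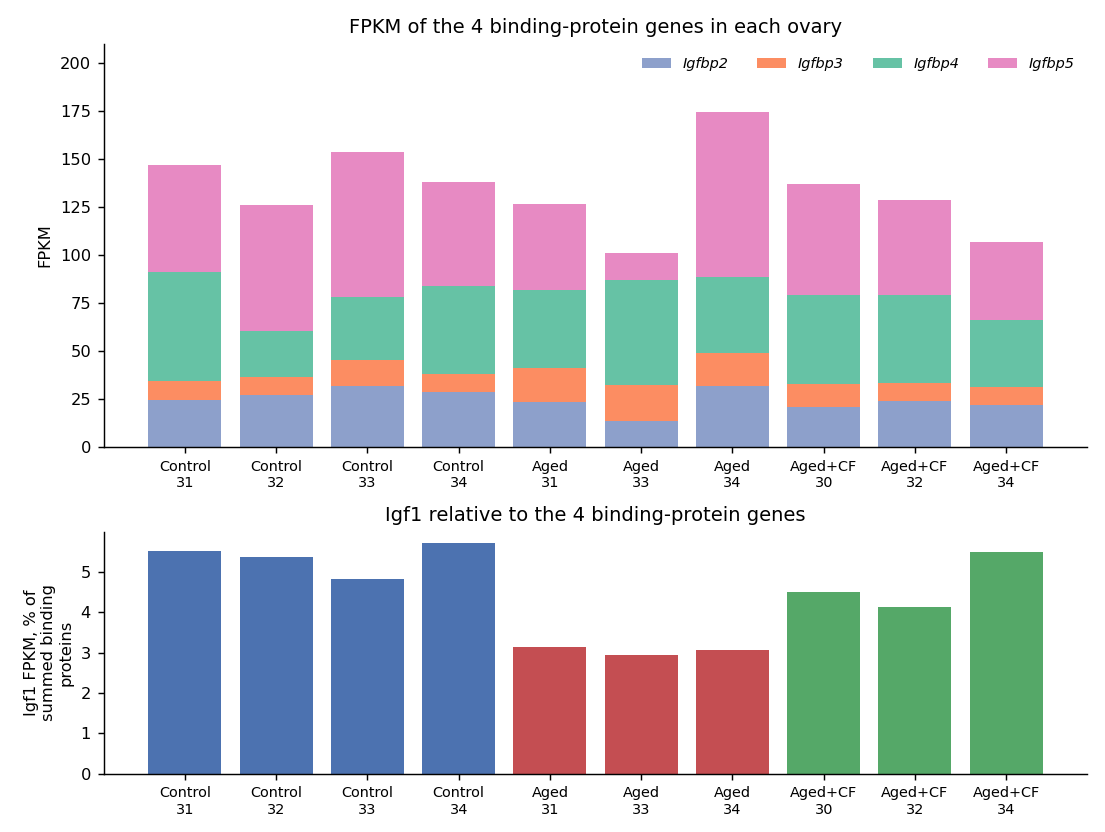
Upper panel: FPKM of the 4 binding-protein genes stacked for each ovary. Lower panel: Igf1 FPKM as a percent of their sum, on an axis that starts at 0. The stack ranges from 101 FPKM in Aged 33 to 175 FPKM in Aged 34, while the Igf1 percent is 2.95 to 3.13 in the 3 Aged ovaries and 4.14 to 5.70 in the other 7.

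Promoters of 9 of the 10 genes, 13 in all, were searched on both strands for GTAAACA (a FOXO motif), TGACGTCA (a CREB motif), GGGCGG (SP1 family) and CACGTG (E-box). The share of all 32851 promoters with each was 3.65%, 1.79%, 35.7% and 7.15%. No promoter of the set held GTAAACA or TGACGTCA. GGGCGG was found in promoters of Igf2, Igf1r, Irs1, Irs2 and Igfbp2, and CACGTG in those of Irs1, Irs2 and Igfbp2. A match describes the letters only.

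The genes whose log2 CPM followed the called genes most closely over the 10 ovaries were found among 13119 genes with a mean of at least 5 CPM. For Irs2 they were Stk11ip, Angel1 and Wdr3 (Pearson r 0.986, 0.984 and 0.983 across ovaries). For Igf1 they were Osbpl6, Lrp4 and Llgl1 (0.988, 0.983 and 0.980), and for Igfbp3 they were Acaa2, a mitochondrial thiolase, Amy1 and Rabif (0.977, 0.965 and 0.955). The ovaries fall into groups that differ for many genes, the best of many candidates were taken, and these r describe likeness of pattern with no test.

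The rest of the pathway was described from a list of 63 further genes, of which 57 passed the filter. In Aged vs Control, 7 of 57 were called by edgeR, 12.3% beside the 11.1% of all genes, with 1 higher and 6 lower. Their count ran from 4 to 7 when single ovaries were left out, 4 being without Control 34. The median log2 fold change of the 57 was -0.08. Against either Aged or Control, edgeR called none in Aged+CF at adjusted p. With the fold change and an unadjusted p, 5 of 57 (8.77%) passed in Aged+CF vs Aged and 4 of 57 (7.02%) in Aged+CF vs Control, beside 7.96% and 7.69% of all genes. DESeq2's Wald test called 1 and 2 of them at adjusted p, beside 2.33% and 2.79% of all genes. Without Aged 34, edgeR called 1 in each of these comparisons, beside 2.87% and 1.8%.

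Pappa, which encodes the protease PAPP-A that cleaves IGFBP4 and frees IGF, was the 1 pathway gene called as higher in Aged vs Control. It was at 26.5, 9.04, 13.5 and 7.0 CPM in Control 31, 32, 33 and 34. It was at 28.6, 62.1 and 31.4 CPM in Aged 31, 33 and 34, and at 15.5, 11.9 and 7.78 CPM in Aged+CF 30, 32 and 34. Aged was above both other groups, with Control 31 close to Aged 31. Pappa rose in Aged vs Control by 1.54 on the log2 scale (SE 0.46, adjusted p = 0.0476, edgeR), a call lost in 13 of 18 alternative analyses (adjusted p 0.00612 to 0.158). For Aged+CF vs Aged its log2 fold change was -1.79 (SE 0.50, adjusted p = 0.177, edgeR). Igf2r, which takes up IGF2 for degradation, was at 154 to 180 CPM in Control, 142 to 175 CPM in Aged and 194 to 217 CPM in Aged+CF. Its log2 fold change in Aged+CF vs Aged was 0.34 (unadjusted p = 0.00981, adjusted p = 0.199, edgeR), with all Aged+CF ovaries above all others. Igfbp7, whose product binds IGF weakly, is named here after its values were seen. It was at 655 to 692 CPM in Control, 845 to 1066 CPM in Aged and 626 to 759 CPM in Aged+CF, with Aged above both other groups. Its log2 fold change in Aged vs Control was 0.48 (SE 0.11, adjusted p = 0.0203, edgeR), a 1.40-fold difference that passed the p but not the fold threshold, and for Aged+CF vs Aged it was -0.45 (SE 0.12, unadjusted p = 0.00384, adjusted p = 0.169, edgeR).

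Downstream of the receptors, 1 of 14 tested adaptor and PI3K genes was called in Aged vs Control (7.14%), beside 11.1% of all genes. Of the tested genes of the AKT, FOXO and mTOR branch, 2 of 19 were called (10.5%). Pik3cd, the delta catalytic subunit of PI3-kinase, fell in Aged vs Control by 0.95 on the log2 scale (SE 0.14, adjusted p = 0.00550, edgeR). Its level was 53.8 to 63.8 CPM in Control and 27.5 to 34.5 CPM in Aged. Gsk3b, the kinase that AKT inhibits, fell by 1.33 (SE 0.28, adjusted p = 0.0159, edgeR), from 80.3 to 151 CPM in Control to 43.5 to 50.7 CPM in Aged. Foxo1, the transcription factor that AKT keeps out of the nucleus, fell by 1.21 (SE 0.28, adjusted p = 0.0212, edgeR). Foxo1 was at 588 to 671 CPM in the Control ovaries, at 351, 274 and 186 CPM in Aged 31, 33 and 34, and at 485, 239 and 546 CPM in Aged+CF 30, 32 and 34. As for Irs1 and Irs2, Aged+CF 32 was the lowest of its group, here within the Aged range. The Foxo1 call was lost in 4 of 18 alternatives and the Gsk3b call in 2 of 18. Their tested relatives were not called in Aged vs Control. Log2 fold changes were -0.05 for Pik3ca, 0.39 for Pik3cb, 0.03 for Gsk3a, -0.04 for Foxo3, -0.08 for Foxo4 and 0.12 for Foxo6.

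Of the negative regulators tested, 2 of 13 were called in Aged vs Control, both lower (15.4%, beside 11.1% of all genes). Grb14, which binds the active insulin receptor and inhibits it, was at 296 to 338 CPM in Control, at 172, 164 and 110 CPM in Aged 31, 33 and 34, and at 264, 168 and 303 CPM in Aged+CF 30, 32 and 34. It fell in Aged vs Control by 1.09 on the log2 scale (SE 0.21, adjusted p = 0.0117, edgeR). Socs2, which restrains growth hormone signalling, fell by 0.64 (SE 0.15, adjusted p = 0.0228, edgeR), a call lost in 8 of 18 alternatives. Socs2 was at 234 to 342 CPM in Control, 160 to 226 CPM in Aged and 169 to 200.0 CPM in Aged+CF, so that the Aged and Aged+CF ovaries shared one range. Igf2bp2, an RNA-binding protein named for its binding to Igf2 mRNA, fell by 1.48 (SE 0.27, adjusted p = 0.0103, edgeR), from 14.9 to 19.0 CPM in Control to 3.88 to 8.11 CPM in Aged, with 6.20 to 11.3 CPM in Aged+CF.

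**Figure D5:**
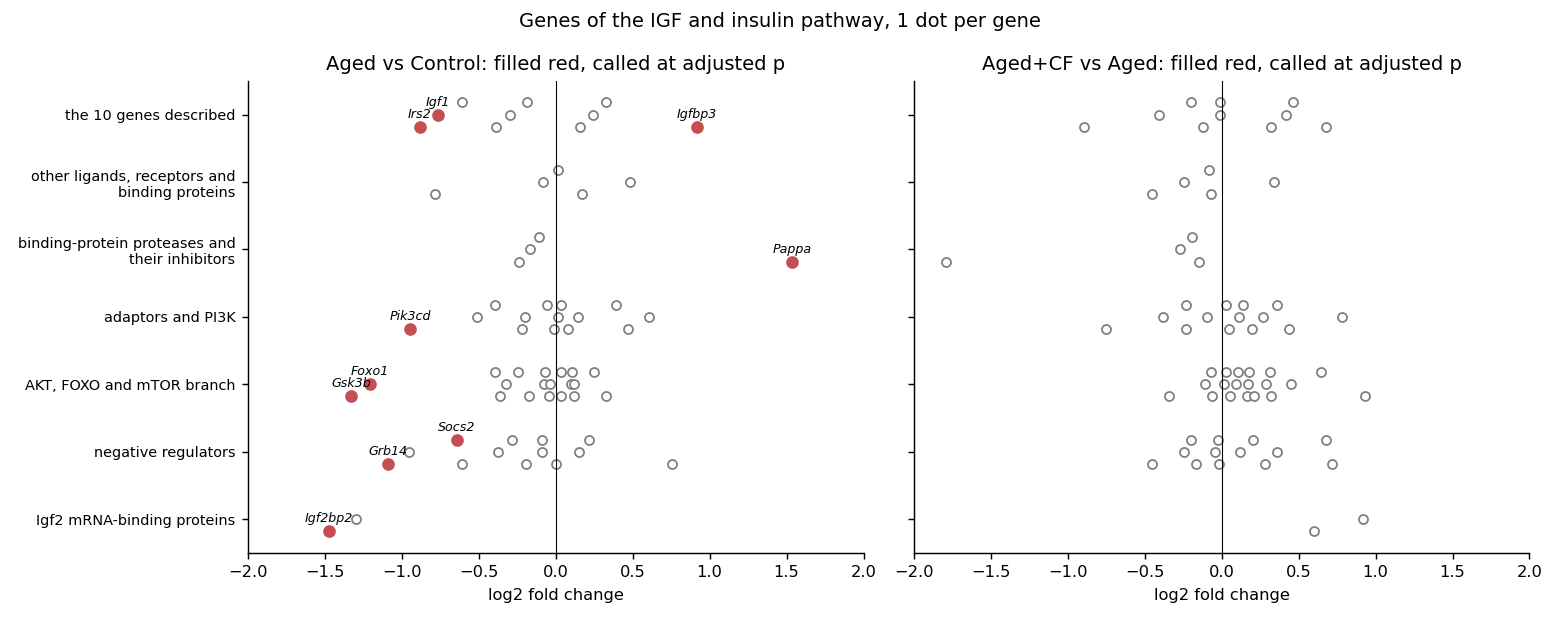
Log2 fold change of each tested gene of the pathway, 1 dot per gene, by role (rows), in Aged vs Control (left) and Aged+CF vs Aged (right); filled red dots were called at adjusted p by edgeR. Of the 10 genes described and the 57 further genes, 3 and 7 are filled on the left, from Igf2bp2 at -1.48 to Pappa at 1.54, and none on the right.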

How the data were processed

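RNA-seq was made from 10 ovaries in 3 groups taken from the GEO labels. The authors deposited 1 table of gene counts and FPKM per ovary. The submitters' processing notes name TopHat, Cufflinks 2.1.1 and GRCm38.p4; the counting tool and its strand setting are not given in the sources used here. In all 36618 genes with a count, the deposited FPKM equalled count over a fixed gene length and the total count, to within 0.001; 18869 genes had no count. Counts were fitted with edgeR 4.0 (R 4.3; filterByExpr, TMM, quasi-likelihood F test, all 10 ovaries, no covariates), with Benjamini-Hochberg adjustment over 18956 genes; calls needed a fold change of 1.5 and adjusted p under 0.05. CPM values were TMM-scaled.

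The members and lists were chosen with earlier results of these data known. All members are named, with pathway genes called at adjusted p (at most 8, lowest p first) plus Ins1, Ins2, Igf2r, Pappa and Foxo1; the Irs1 promoter and the E-box were added after the sequences had been seen. Alternatives were DESeq2 1.42 size factors and Wald test, limma 3.58 on log2(FPKM + 1), total-count scaling, no filter, other thresholds, fewer groups, a replicate block and leaving out ovaries. Whether the replicate numbers pair the samples could not be decided from so few ovaries, and no duplicate library was found. Scripts were tested on simulated data. Levels of different genes were compared in FPKM. Positions are GRCm38; promoters are RefSeq, GRCm38.p6. No promoter of Insr and no protein sequence was used here. The 95% intervals of fold changes come from the edgeR fit and include the spread between ovaries. Floors on counts cover counting error only.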

Additional observations from a re-analysis of the deposited data

Results flagged for a closer look

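In Control, the group of 4, the gap of the extreme ovary to its neighbour over the whole range exceeded Dixon's 95% critical value for 2 of the 10 genes. For Igf2 the ratio was 0.861, set by Control 31, the lowest at 13.5 CPM. For Igfbp3 it was 0.858, set by Control 33, the highest at 49.2 CPM, which also held the summed oviduct markers of 393 CPM; their part in the value was not tested. Chance flags about 1 in 20 groups, and groups of 3 were not tested. Igfbp3 was called in Aged vs Control without Control 33 as well.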

How the results depend on the processing

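In Aged vs Control the count of the 10 genes called was 3 to 4 when single ovaries were left out and 3 under other scalings, filters and tests. With the replicate number as a block it was 1 (Igfbp3), with Igf1 at adjusted p = 0.0594 and Irs2 at 0.0659, and 0 of the 57 further pathway genes and 80 of all genes were called, against 2096. Same-numbered Control and Aged ovaries deviated together with r of 0.138, -0.185 and 0.0696 for 31, 33 and 34. Of these, Aged 31 correlated best with its own number in Control, and Aged 33 and 34 did not. Aged+CF 32 and 34 had r of -0.0874 and 0.153 with the same number in Control, and Aged+CF 34 correlated best with its own number. With so few ovaries these r cannot decide whether the numbers pair the ovaries. Aged+CF and Aged share 1 number; with the block in the fit of all 10 ovaries, an alternative chosen after seeing the data, edgeR called 0 of the 10 and 0 of the 57 in Aged+CF vs Aged, and 0 of the 10 in Aged+CF vs Control. The pathway count in Aged vs Control was 4 to 7 when single ovaries were left out. For Aged+CF vs Aged, 0 to 2 of the 10 and 0 to 1 of the pathway genes were called when single ovaries were left out, 2 and 1 by DESeq2's Wald test, and 1 and 1 without Control 33 and Aged 34, an alternative chosen after seeing the data; 2 of the 10 passed at unadjusted p. The pathway count in Aged+CF vs Control was 0 to 1 when single ovaries were left out, 2 by DESeq2's Wald test, 1 by limma and 1 in a fit of the groups compared. The cause of these shifts was not tested.

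Total-count scaling moved the median log2 fold change of all genes in Aged vs Control to -0.13 and the share of calls that were higher from 45.2% to 28.5% (limma 24.5%); Igfbp3 stayed higher and Igf1 and Irs2 lower, and the same 3 were called. Without Aged 34, 3112 genes were called in Aged vs Control, and 1081 without Control 32 and 1090 without Control 34. Over all genes in Aged+CF vs Aged, 1 was called by edgeR, 441 by DESeq2's Wald test, 556 without Aged 34 and 289 without Control 33 and Aged 34. For Aged+CF vs Control, 34 were called, 528 by DESeq2's Wald test, 487 in a fit of the groups compared and 348 without Aged 34.

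The other changes of sign were in values that did not pass the test. Over single ovaries left out, log2 fold changes in Aged vs Control ran from -0.42 to 0.067 for Igfbp2, from -0.94 to 0.14 for Igfbp5 and from -0.13 to 0.031 for Igf2r. For Aged+CF vs Aged they ran from -0.039 to 0.0048 for Insr, from -0.35 to 0.13 for Igfbp2, from -0.34 to 0.046 for Igfbp4, from -0.42 to 0.65 for Igfbp5 and from -0.17 to 0.091 for Socs2. For Aged+CF vs Control they ran from -0.14 to 0.0028 for Igf1r, from -0.29 to 0.087 for Irs1, from -0.075 to 0.17 for Igfbp3 and from -0.049 to 0.34 for Igfbp4. Total-count scaling of Aged+CF vs Aged gave 0.084 for Insr, 0.039 for Igfbp5 and 0.060 for Socs2, limma gave 0.079, 0.36 and 0.057, with 0.023 for Igfbp2, and leaving out Control 33 and Aged 34 gave 0.13 for Igfbp2 and 0.65 for Igfbp5. The block gave 0.13 for Insr and 0.089 for Igfbp4 in Aged+CF vs Aged, and 0.012 for Igf1r in Aged+CF vs Control, where total-count scaling and limma gave -0.016 and -0.0050 for Igfbp3.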
